A study of Mus musculus with 4 samples.

Results

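The genes described here are the metallothioneins and the zinc and copper transporters of 4T1 cells, with the metal sensor that controls several of them. They were chosen by symbol, and all 10 were found among the 49585 genes listed: the metallothioneins Mt1 and Mt2, the sensor Mtf1, the zinc exporter Slc30a1, the zinc importers Slc39a4, Slc39a6, Slc39a8 and Slc39a10, the copper importer Slc31a1 and the copper pump Atp7a. 4T1 is a mouse mammary carcinoma line used as a model of triple-negative breast cancer (TNBC). RNA was sequenced from 4T1–HM, a clone of high metastatic capacity, and 4T1–LM, a clone of low metastatic capacity. Each clone was cultured for 48 h either with DMSO, the solvent (HM_Ctrl and LM_Ctrl), or with 50 µmol/L deferasirox (DFX), an oral iron chelator (HM_DFX and LM_DFX). All 4 groups were grown in the same medium. Each clone was grown out from 1 cell, so a difference between the clones is a difference between 2 cell lines. There was 1 library per condition, so no difference within a clone, or between the clones under 1 treatment, has a replicate check or a test. A test over all 4 libraries, with each clone as a pair, is given where stated.

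Levels are given in FPKM, fragments counted for a gene scaled to its length and to library size, which allows genes of different length to be compared. The 4 libraries held 14363062 to 21883860 fragments. A gene was counted as expressed at 1 FPKM or more in at least 1 library, which held for 12669 genes and for 9 of the 10 members, Slc39a8 being the exception. Differences are given as the log2 ratio of FPKM + 1 and 2-fold or more on that scale was the limit for calling a gene higher or lower. Fold ratios of fragments, scaled to library size, are given with an exact 95% interval, which covers counting error only. The epithelial markers Epcam, Cdh1, Krt8, Krt18, Krt14 and Krt19 were expressed and Krt5 was listed at 0 in every library. Of the markers of other cell types, Cd68 was the only one of 5 leukocyte genes expressed and Pdgfra the only one of 5 fibroblast genes, and none of 4 endothelial genes reached 1 FPKM.

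Metallothioneins are small cytosolic proteins whose many cysteines hold zinc and copper ions in clusters, and their genes are among the most metal-inducible of the genome. The zinc-finger protein Mtf1 senses free zinc and binds the metal response element, a short promoter sequence present in several copies upstream of Mt1, Mt2 and Slc30a1. Transporters of the Slc30 family lower cytosolic zinc, those of the Slc39 family raise it, and Slc31a1 and Atp7a move copper into the cell and out of the cytosol. Metallothionein genes are also known to respond to glucocorticoids, oxidative stress and hypoxia, and DFX binds iron far more tightly than zinc or copper.

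Mt1 and Mt2 lay side by side on chromosome 8, and their coding sequences are shown because the cysteine codons account for the metal-binding residues and because they show how far fragments of the paralogs can be told apart. The coding sequence of transcript Mt1-201 ran over 3 exons at chr8:94179311-94180193 (mm10, plus strand) and that of Mt2-201 over 3 exons at chr8:94172848-94173427 (plus strand). Capitals mark the cysteine codons.
Mt1 coding sequence: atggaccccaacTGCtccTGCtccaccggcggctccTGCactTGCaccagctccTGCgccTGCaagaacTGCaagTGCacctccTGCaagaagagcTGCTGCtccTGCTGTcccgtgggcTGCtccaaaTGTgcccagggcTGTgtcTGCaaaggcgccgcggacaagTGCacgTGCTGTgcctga
Mt2 coding sequence: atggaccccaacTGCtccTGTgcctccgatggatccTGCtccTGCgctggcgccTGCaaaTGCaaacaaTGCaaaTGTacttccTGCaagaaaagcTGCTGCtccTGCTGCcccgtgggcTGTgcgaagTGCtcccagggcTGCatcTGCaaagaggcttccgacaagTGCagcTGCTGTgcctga
Each sequence held 61 codons before the stop, and 20 of these, 32.8%, coded for cysteine. The 20 cysteine codons stood at the same positions in both genes, and 148 of the 186 bases, 79.6%, were identical. No stretch of 31 bases of Mt1 transcripts occurred in transcripts of another gene. For Mt2, 58.1% of such stretches did, almost all of them on the opposite strand, where an antisense gene overlaps it, and 0.524% on the same strand.

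The promoters of the pair are shown because they hold the sequence that Mtf1 recognises. Each window covers the 250 bases before the RefSeq gene start on GRCm38.p6 (mm10), and capitals mark matches to the core of the metal response element, searched as TGCACNC and TGCGCNC on both strands.
Mt1 promoter, chr8:94178839-94179088, plus strand: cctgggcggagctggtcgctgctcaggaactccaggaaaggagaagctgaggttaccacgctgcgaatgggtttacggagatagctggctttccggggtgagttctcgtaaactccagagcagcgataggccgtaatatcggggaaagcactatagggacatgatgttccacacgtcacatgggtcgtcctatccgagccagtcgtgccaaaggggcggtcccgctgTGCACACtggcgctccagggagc
Mt2 promoter, chr8:94172368-94172617, plus strand: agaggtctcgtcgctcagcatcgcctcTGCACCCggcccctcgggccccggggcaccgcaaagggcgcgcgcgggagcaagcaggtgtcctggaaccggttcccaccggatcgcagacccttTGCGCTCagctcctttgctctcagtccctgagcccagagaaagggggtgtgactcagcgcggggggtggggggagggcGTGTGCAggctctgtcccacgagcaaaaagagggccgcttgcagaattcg
The Mt1 window held 1 match, at positions -23 to -17 before the start. The Mt2 window held 3, at -223 to -217, -128 to -122 and -50 to -44, the last on the minus strand. Of 32851 mouse promoter windows of that length, 21.4% held at least 1 match and 1.26% held 3 or more. With the first 50 bases of the gene included, the counts were 3 for Mt1 and 4 for Mt2, against 1.97% of all windows with 3 or more. The windows depend on the annotated start: the Mt1-201 transcript begins 7 bases before the end of its window, other Mt1 transcripts begin 122 and 152 bases after it, and Mt2-201 begins 46 bases after it.

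Windows were found for 8 of the 10 genes, with a pair of starts each for Slc39a8 and Slc39a10. Slc30a1 held 1 match to the metal core, at -43 to -37. Atp7a held 2, and the later start of Slc39a8 held 1. Mtf1, Slc31a1 and both starts of Slc39a10 held none. The Slc39a10 windows were chr1:46925777-46926026, upstream of the measured gene, and chr1:46853619-46853868, within it. The stretch directly before its measured start, at 46892852 on the minus strand, was not searched. The Mtf1 window, chr4:124802299-124802548, also lay within the measured gene, which starts at 124802104. The core of the hypoxia response element, searched as ACGTG and GCGTG on both strands, occurred 2 times in the Mt1 window, 1 time in those of Mt2 and Slc30a1, 3 times at the later Slc39a8 start and 5 times in Atp7a, and 38.6% of all windows held it. In the Mt2 window the hypoxia match overlapped the metal match nearest the start, and 1 of the matches of Atp7a overlapped a metal match as well. A match is a run of letters and was not tied to binding in these data.

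**Figure D1:**
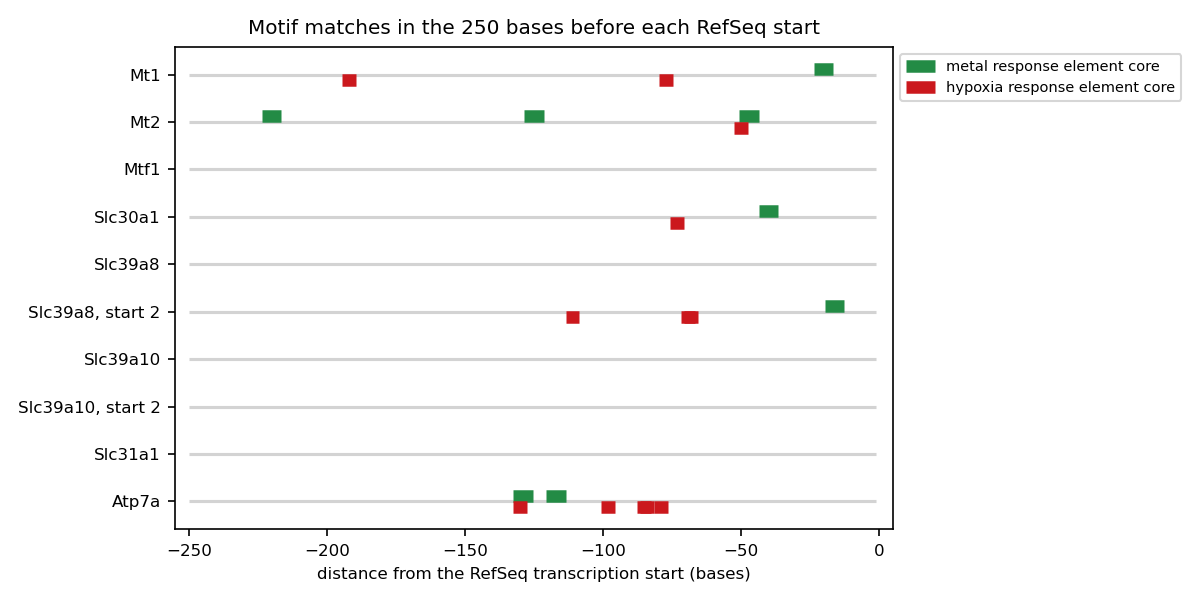
Matches to the cores of the metal and hypoxia response elements in the 250 bases before each RefSeq start. The horizontal axis is the distance from the start in bases and each line is 1 promoter window. The Mt2 window holds 3 metal matches spread over its length, the Mt1 window 1 near the start, and the windows of Mtf1, Slc31a1 and Slc39a10 none.

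The metallothionein pair was higher in 4T1–HM than in 4T1–LM, and in 4T1–LM both genes were more than 2-fold higher under DFX. Mt1 (ENSMUSG00000031765, chr8:94179082-94180327, plus strand) was measured at 194 FPKM in HM_Ctrl and 299 in HM_DFX, against 37.9 in LM_Ctrl and 128 in LM_DFX. Mt2 (ENSMUSG00000031762, chr8:94172664-94173568, plus strand) was measured at 421 FPKM in HM_Ctrl and 823 in HM_DFX, against 94.4 in LM_Ctrl and 222 in LM_DFX. For both genes LM_Ctrl was the lowest library, LM_DFX the next and HM_DFX the highest, so that 4T1–LM under DFX remained below 4T1–HM without it.

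Between the untreated clones, Mt1 was 5.13-fold higher in HM_Ctrl (interval 4.74 to 5.55) and Mt2 4.46-fold higher (4.15 to 4.80). Under DFX in 4T1–LM, Mt1 was 3.38-fold higher (3.12 to 3.66) and Mt2 2.35-fold higher (2.18 to 2.54). In 4T1–HM, the ratios were 1.54 for Mt1 (1.48 to 1.61) and 1.95 for Mt2 (1.88 to 2.03), and neither gene was called. Mt2 lay just under the threshold there, with a log2 ratio of 0.96, and was past it at 1.10 when libraries were scaled by median ratios and at 1.07 when scaled to the 75th percentile.

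**Figure D2:**
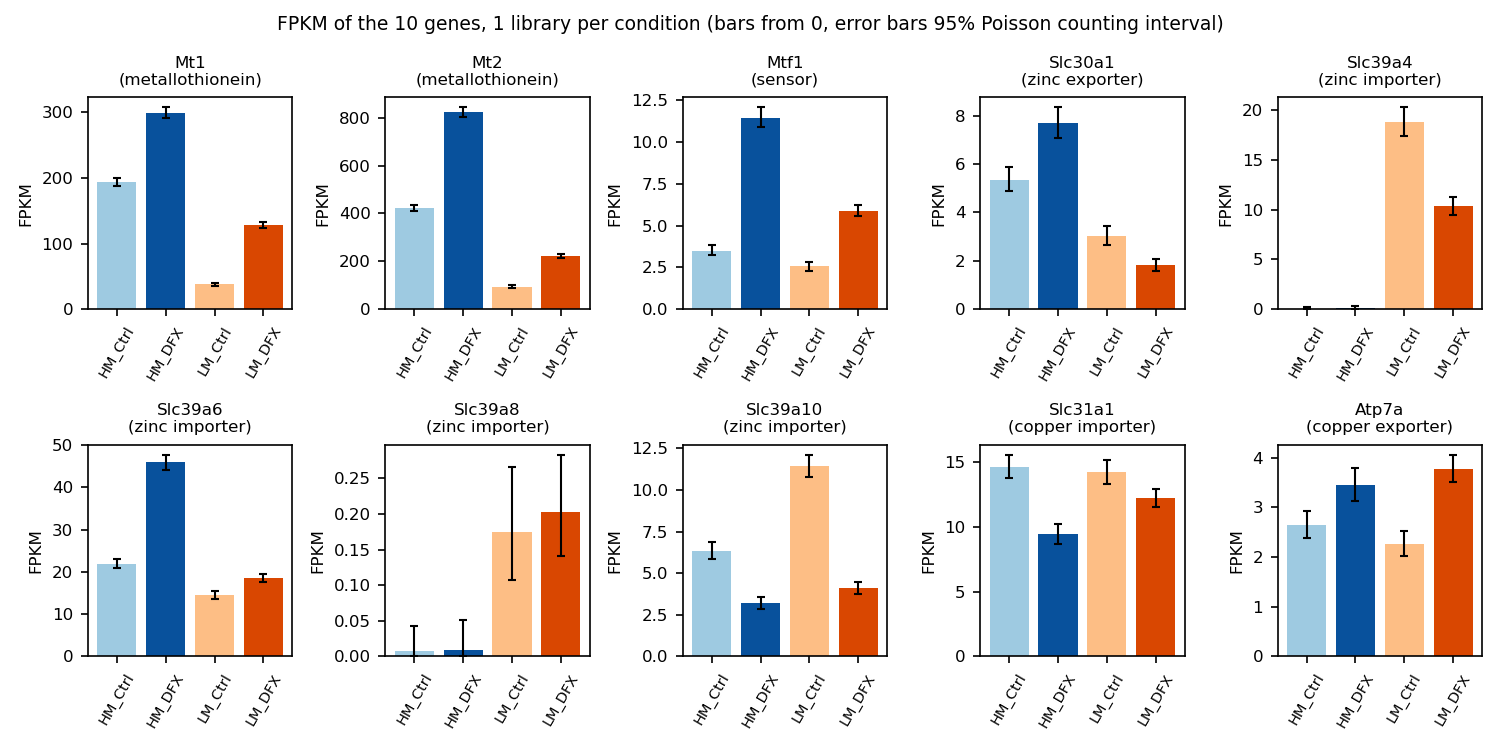
FPKM of the 10 genes in each of the 4 libraries, with error bars for the 95% counting interval, and 1 library per condition. Each gene has its own panel with a linear axis, so bar heights are not comparable between genes. Mt2 and Mt1 are the highest members in each library, Slc39a4 is at 18.8 and 10.4 FPKM in 4T1–LM and under 1 FPKM in 4T1–HM, and Slc39a8 is under 1 FPKM throughout.

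Among all genes expressed, Mt2 ranked 86 in HM_Ctrl and 42 in HM_DFX, against 516 in LM_Ctrl and 204 in LM_DFX. Mt1 ranked 220, 139, 1582 and 356 in the same libraries. Together the pair took 0.0489% of counted fragments in HM_Ctrl and 0.0857% in HM_DFX, against 0.0103% in LM_Ctrl and 0.0290% in LM_DFX. The balance between the genes also differed: there were 1.02 Mt2 fragments per Mt1 fragment in HM_Ctrl (0.981 to 1.07) and 1.30 in HM_DFX (1.25 to 1.35), against 1.18 in LM_Ctrl (1.07 to 1.30) and 0.819 in LM_DFX (0.780 to 0.861). LM_DFX was thus the only library with fewer Mt2 than Mt1 fragments. As a ratio of FPKM, Mt2 exceeded Mt1 by 2.17-fold, 2.75-fold, 2.49-fold and 1.74-fold, since the gene length behind FPKM was 1246 bases for Mt1, some of whose annotated transcripts retain introns, and 588 for Mt2.

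The other metallothioneins were not expressed: Mt3, the brain form, reached at most 0.224 FPKM and Mt4, the form of squamous epithelium, was listed at 0 in every library. The antisense gene RP23-98C9.5, which overlaps Mt2 by 749 bases, was measured at 10.2 FPKM in HM_Ctrl and 18.3 in HM_DFX, against 2.39 in LM_Ctrl and 3.60 in LM_DFX. It followed the order of Mt2, and since it is not given whether strand was used in counting, fragments of the pair may not be separated. Beyond the 5513 bases between the genes, the nearest expressed protein-coding gene after Mt1 was Nup93, a nuclear pore subunit, at 20.1 FPKM in HM_Ctrl and 13.9 in HM_DFX, against 30.1 in LM_Ctrl and 15.1 in LM_DFX. The Nup93 log2 ratios were -0.56 for HM_Ctrl against LM_Ctrl, -0.50 under DFX in 4T1–HM and -0.95 in 4T1–LM, each of the opposite sign to that of the pair and none called. Bbs2, the nearest expressed gene before Mt2, stayed between 1.90 and 2.81 FPKM.

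Counted together, 2 of the 9 expressed members were called under DFX in 4T1–HM, both higher (Mtf1 and Slc39a6), where 19.3% of all expressed genes were called, 6.93% higher and 12.4% lower. In 4T1–LM 3 of 9 were called, Mt1 and Mt2 higher and Slc39a10 lower, where 15.8% of genes were called, 7.09% higher and 8.72% lower. The share of 22.2% in 4T1–HM is near the background, and that of 33.3% in 4T1–LM rests on 3 genes. Between the untreated clones 3 of 9 were called, Mt1 and Mt2 higher in 4T1–HM and Slc39a4 lower, where 6.80% of genes were called, 3.65% higher and 3.15% lower. Under DFX 5 of 9 separated the clones, Mt1, Mt2, Slc30a1 and Slc39a6 higher in 4T1–HM and Slc39a4 lower, where 8.36% were, 3.31% higher and 5.05% lower. These comparisons share libraries, each of the 4 libraries serving in 2 of them, so their counts are not independent.

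**Figure D3:**
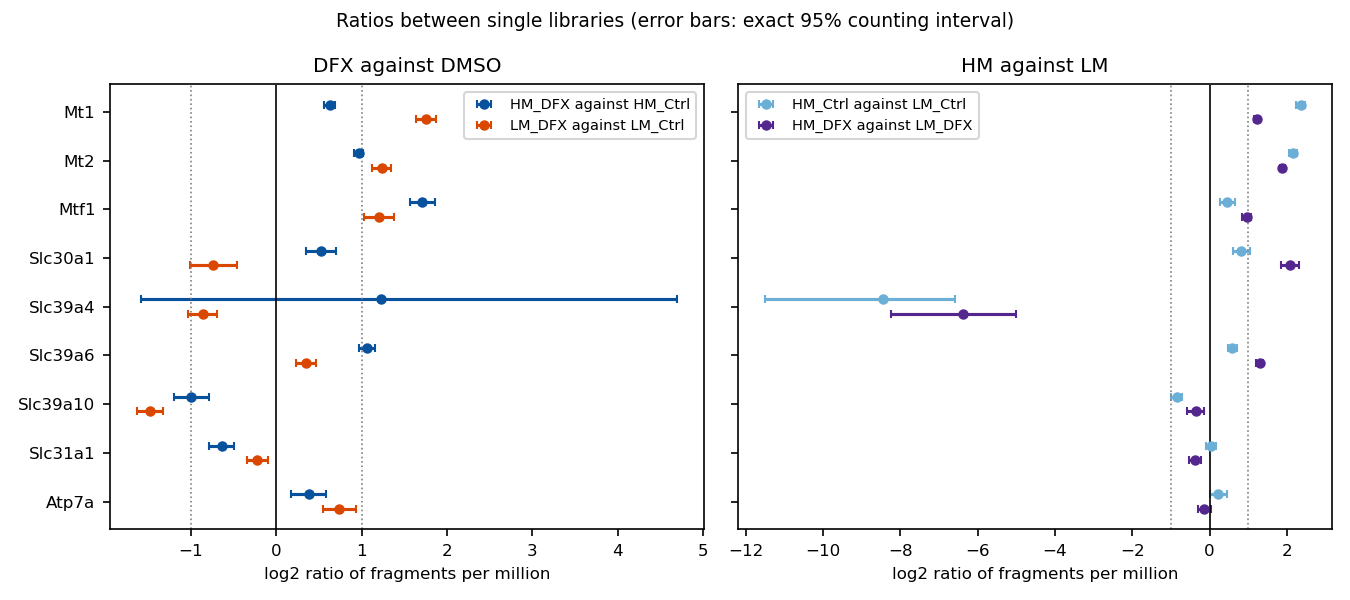
Log2 ratio of library-scaled fragments for the 9 expressed members, under DFX against DMSO in each clone (left) and 4T1–HM against 4T1–LM untreated and under DFX (right), with exact 95% counting intervals, dotted lines at 2-fold and 1 library per condition. In the left panel Mt1 lies further right in 4T1–LM than in 4T1–HM, and Slc30a1 lies on opposite sides of no change. In the right panel Slc39a4 lies far to the left of the other genes, with the widest intervals.

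The median log2 ratio of the 9 members under DFX was 0.45 in 4T1–HM and 0.33 in 4T1–LM, where the medians of all expressed genes were -0.10 and -0.04. Between the untreated clones the member median was 0.34 against 0.01, and under DFX 0.85 against -0.05. The DFX response of 1 member, Mt1, differed by 2-fold or more between the clones, with 4T1–HM below 4T1–LM by -1.11 on the log2 scale, where 8.90% of expressed genes differed as far. The next were Slc30a1 at 0.97 and Slc39a6 at 0.70, each with the higher value in 4T1–HM. The log2 ratios of Slc30a1 had opposite signs in the clones, as had those of 23.0% of expressed genes. No difference in response is given for Slc39a4, whose value in 4T1–HM rests on 2 and 4 fragments.

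Taken over both clones, Mt1, Mt2 and Mtf1 were higher and Slc39a10 lower under DFX. An additive fit of clone and DFX to the 4 libraries with limma, added after the values were seen, treats each clone as a pair and takes its error from how far the DFX response differed between the clones, with 1 residual degree of freedom and a spread moderated over 12669 genes. For DFX, 4 of 9 members passed an adjusted p of 0.05, where 20.9% of genes did. The fitted log2 differences were 1.18 ± 0.29 (SE) for Mt1 (adjusted p = 0.0333), 1.10 ± 0.19 for Mt2 (adjusted p = 0.0129), 1.21 ± 0.22 for Mtf1 (adjusted p = 0.0135) and -1.05 ± 0.21 for Slc39a10 (adjusted p = 0.0188), each with the same sign in 2 of 2 clones. Slc39a6 did not pass, at 0.68 ± 0.24 (adjusted p = 0.0898), nor did Slc30a1, whose fitted difference was -0.03 ± 0.27 (adjusted p = 0.944). Between the clones over both treatments, 3 of 9 members passed, where 1.32% of genes did: Mt1 at 1.77 ± 0.29 (adjusted p = 0.0472), Mt2 at 2.02 ± 0.19 (adjusted p = 0.0151) and Slc39a4 at -3.78 ± 0.27 (adjusted p = 0.00833). Each clone is 1 line, so these p-values measure how alike the lines responded and not the spread between cultures.

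Mtf1 (ENSMUSG00000028890, chr4:124802104-124849800, plus strand), the zinc-sensing activator of the pair, was measured at 3.51 FPKM in HM_Ctrl and 11.5 in HM_DFX, against 2.55 in LM_Ctrl and 5.88 in LM_DFX. Both DFX libraries were above both untreated libraries. In 4T1–HM it was 3.27-fold higher under DFX (2.95 to 3.62), the largest DFX ratio among the members with more than 4 fragments in that clone. In 4T1–LM the fragment ratio was 2.30 (2.04 to 2.60) while the log2 ratio of FPKM + 1 was 0.95, so the call depended on the pseudocount, and at a pseudocount of 0.1 FPKM the value was 1.17. The untreated clones differed by 1.37-fold (1.20 to 1.57). An opposite-strand gene, 1110065P20Rik, shares 7.77% of Mtf1 stretches of 31 bases and stayed between 7.90 and 10.3 FPKM.

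Of 4 further genes linked to Mtf1, Selenow alone was called higher in both clones under DFX. Among all expressed genes, 6.93% were called higher in 4T1–HM and 7.09% in 4T1–LM, and 3.15% were called lower in HM_Ctrl than in LM_Ctrl. Selenow, a small selenoprotein, was measured at 45.8 FPKM in HM_Ctrl and 147 in HM_DFX, against 33.7 in LM_Ctrl and 182 in LM_DFX. Pgf, placental growth factor, was 0.151 FPKM in HM_Ctrl and 0.220 in HM_DFX, against 3.42 in LM_Ctrl and 12.4 in LM_DFX, so it was called higher under DFX in 4T1–LM and lower in HM_Ctrl than in LM_Ctrl, the opposite direction between the clones to Mt1 and Mt2. Gclc, which makes the first product of glutathione synthesis, and Selenoh were not called under DFX in either clone. Their values under DFX as log2 ratios were 0.35 and -0.70 in 4T1–HM, and -0.19 and -0.18 in 4T1–LM.

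Slc30a1 (ENSMUSG00000037434, chr1:191906767-191913247, plus strand), the exporter that carries zinc out across the plasma membrane, was measured at 5.35 FPKM in HM_Ctrl and 7.69 in HM_DFX, against 3.03 in LM_Ctrl and 1.82 in LM_DFX. The clones went opposite ways: the fragment ratio under DFX was 1.44 in 4T1–HM (1.27 to 1.63) and 0.601 in 4T1–LM (0.498 to 0.725). Neither reached 2-fold, and the log2 responses differed by 0.97 between the clones. Under DFX the level was 4.22-fold higher in 4T1–HM than in 4T1–LM (3.60 to 4.97). In 4T1–LM, Mt1 and Mt2 were called higher under DFX while Slc30a1, the other classical target of Mtf1, had a ratio below 1 that was not called. The part of Mtf1 in these values was not tested.

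No exporter of the family passed 2-fold under DFX in either clone. That limit was passed by 19.3% of all expressed genes in 4T1–HM and 15.8% in 4T1–LM, and the family is small. Of 10 Slc30 genes 6 were expressed, and their median log2 ratio under DFX was 0.30 in 4T1–HM and 0.12 in 4T1–LM, against -0.10 and -0.04 over all expressed genes. The highest of them was Slc30a4, which loads zinc into vesicles, at 44.2 FPKM in HM_Ctrl and 47.7 in HM_DFX, against 29.5 in LM_Ctrl and 36.9 in LM_DFX. Slc30a5, a transporter of the secretory pathway, shared the opposite directions of Slc30a1, at 18.5, 23.5, 19.2 and 12.5 FPKM in the same order. Slc30a4 and Slc30a5 are named here after their values were seen.

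Slc39a4 (ENSMUSG00000063354, chr15:76612385-76616852, minus strand), the importer that takes up dietary zinc in the intestine, divided the clones most. It was measured at 0.0537 FPKM in HM_Ctrl and 0.125 in HM_DFX, against 18.8 in LM_Ctrl and 10.4 in LM_DFX. These levels correspond to 2, 4, 657 and 505 fragments, taking the smallest gene length that gives whole fragments. LM_Ctrl exceeded HM_Ctrl by 349.7-fold, with a counting interval of 96.4 to 2893 since HM_Ctrl rests on 2 fragments. In 4T1–LM the ratio under DFX was 0.553 (0.491 to 0.621), or -0.80 on the log2 scale, and was not called. In 4T1–HM, 2 and 4 fragments allow no statement on the response, the interval of the ratio running from 0.334 to 25.8.

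Slc39a6 and Slc39a10 encode importers that are close relatives and are known to form a complex, and they went opposite ways under DFX. Slc39a6 (ENSMUSG00000024270, chr18:24579881-24603817, minus strand) was measured at 21.9 FPKM in HM_Ctrl and 45.9 in HM_DFX, against 14.6 in LM_Ctrl and 18.6 in LM_DFX. HM_DFX stood above the rest, with a ratio to HM_Ctrl of 2.09 (1.96 to 2.23), and LM_DFX had a ratio to LM_Ctrl of 1.27 (1.17 to 1.38), which was not called. Slc39a10 (ENSMUSG00000025986, chr1:46807544-46892852, minus strand), which Mtf1 is known to repress in mouse cells, was measured at 6.36 FPKM in HM_Ctrl and 3.20 in HM_DFX, against 11.4 in LM_Ctrl and 4.10 in LM_DFX. Both DFX libraries lay below both untreated libraries. The ratio was 0.503 in 4T1–HM (0.436 to 0.580), with a log2 value of -0.81 that was not called, and 0.359 in 4T1–LM (0.323 to 0.398), called lower at -1.28.

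Slc39a8 (ENSMUSG00000053897, chr3:135825279-135888572, plus strand), which carries zinc, manganese and iron, was measured at 0.00779 FPKM in HM_Ctrl and 0.00908 in HM_DFX, against 0.174 in LM_Ctrl and 0.203 in LM_DFX. These were 1, 1, 21 and 34 fragments. It was therefore below the expression limit in every library, and LM_Ctrl exceeded HM_Ctrl by 22.4-fold with a counting interval of 3.60 to 924. In 4T1–LM the ratio under DFX was 1.16 (0.656 to 2.11).

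Across the Slc39 family, 10 of 14 genes were expressed. Under DFX in 4T1–HM, Slc39a6 was called higher and Slc39a13 lower, and in 4T1–LM Slc39a10 was called lower. Of all expressed genes, 19.3% were called in 4T1–HM and 15.8% in 4T1–LM. Slc39a13, an importer of intracellular membranes, was measured at 21.7 FPKM in HM_Ctrl and 9.85 in HM_DFX, against 18.0 in LM_Ctrl and 19.6 in LM_DFX, so that HM_DFX alone stood low. The median log2 ratio of the expressed family members was 0.08 in 4T1–HM and 0.15 in 4T1–LM. Slc39a4 was the only importer called between the untreated clones, where 6.80% of all expressed genes were called. Slc39a1, a plasma membrane importer named here after its values were seen, was the highest of the family except in HM_DFX, where Slc39a6 exceeded it. It was at 40.3 FPKM in HM_Ctrl and 30.6 in HM_DFX, against 55.1 in LM_Ctrl and 59.9 in LM_DFX.

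**Figure D4:**
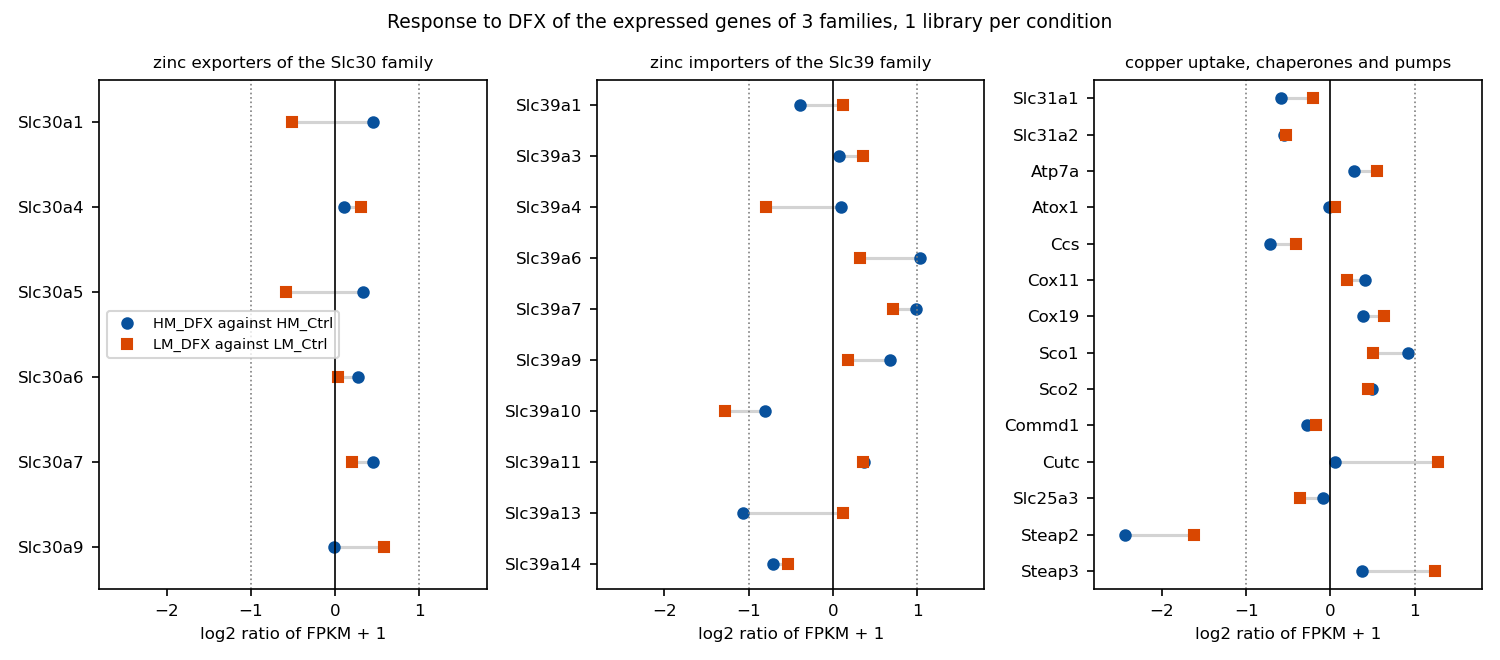
Log2 ratio of FPKM + 1 under DFX for the expressed genes of 3 families, circles for 4T1–HM and squares for 4T1–LM, with dotted lines at 2-fold and 1 library per condition. No Slc30 exporter passes 2-fold. Slc39a6 and Slc39a13 pass it in 4T1–HM and Slc39a10 in 4T1–LM. Of the copper genes, Steap2 passes it in both clones, and Cutc and Steap3 pass it in 4T1–LM.

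Neither copper transporter was called in any comparison. Slc31a1 (ENSMUSG00000066150, chr4:62360727-62391769, plus strand), the high-affinity copper importer, was measured at 14.7 FPKM in HM_Ctrl and 9.43 in HM_DFX, against 14.2 in LM_Ctrl and 12.2 in LM_DFX. The ratio between the untreated clones was 1.03, with an interval that held 1 (0.943 to 1.13), and the ratios under DFX were 0.643 in 4T1–HM (0.580 to 0.713) and 0.859 in 4T1–LM (0.788 to 0.937). Atp7a (ENSMUSG00000033792, chrX:106027276-106124926, plus strand), which pumps copper into the Golgi and out of the cell, was measured at 2.65 FPKM in HM_Ctrl and 3.44 in HM_DFX, against 2.26 in LM_Ctrl and 3.77 in LM_DFX. Both DFX libraries were above both untreated ones, with ratios of 1.30 (1.13 to 1.5) and 1.67 (1.46 to 1.91). Slc31a1 also overlaps Cdc26 on the opposite strand, which stayed between 2.41 and 3.38 FPKM.

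Of 17 genes of copper uptake, delivery and export, 14 were expressed, with median log2 ratios under DFX of 0.02 in 4T1–HM and 0.13 in 4T1–LM. The genes called are given below, where 19.3% of all expressed genes were called under DFX in 4T1–HM and 15.8% in 4T1–LM. Steap2, a reductase of iron and copper at the membrane, was called lower in both clones: it was 17.1 FPKM in HM_Ctrl and 2.32 in HM_DFX, against 19.1 in LM_Ctrl and 5.55 in LM_DFX. Steap3, the reductase of endosomal iron, was 14.1 FPKM in HM_Ctrl and 18.7 in HM_DFX, against 6.46 in LM_Ctrl and 16.6 in LM_DFX, and was called higher under DFX in 4T1–LM and in HM_Ctrl against LM_Ctrl. Cutc, a copper-binding protein, was 2.27 FPKM in HM_Ctrl and 2.40 in HM_DFX, against 1.56 in LM_Ctrl and 5.21 in LM_DFX, and was called higher under DFX in 4T1–LM. The chaperone Atox1, which hands copper to Atp7a, stayed between 91.5 and 109.7 FPKM.

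Among copper enzymes, 6 of 13 were expressed, and the same 2 genes were called lower under DFX in each clone. Of all expressed genes, 12.4% were called lower in 4T1–HM and 8.72% in 4T1–LM. Cp, ceruloplasmin, a copper enzyme that oxidises iron, was 29.4 FPKM in HM_Ctrl and 7.26 in HM_DFX, against 17.4 in LM_Ctrl and 4.89 in LM_DFX. Loxl3, a copper-dependent crosslinker of collagen, was 11.5 FPKM in HM_Ctrl and 0.832 in HM_DFX, against 5.97 in LM_Ctrl and 1.71 in LM_DFX. Both DFX libraries lay below both untreated libraries for each gene. The median log2 ratio of the 6 was -0.72 in 4T1–HM and -0.46 in 4T1–LM.

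Other gene lists that can move with metallothioneins are given beside these values, and their part in them was not tested. Of 8 targets of the hypoxia-inducible factors (HIF), 8 were called higher under DFX in 4T1–LM, where 7.09% of expressed genes were. In 4T1–HM 1 was called higher, Ndrg1, where 6.93% of genes were, and Egln3 was called lower. Bnip3, Vegfa and Slc2a1 lay just under the threshold in 4T1–HM, with log2 ratios of 0.99, 0.97 and 0.95, while Car9 was at -0.32. Between the untreated clones 6 were higher in HM_Ctrl than in LM_Ctrl, where 3.65% of genes were. Ndrg1, an iron- and hypoxia-responsive growth regulator, was 177 FPKM in HM_Ctrl and 577 in HM_DFX, against 49.1 in LM_Ctrl and 613 in LM_DFX. Like Mt1, this list was lowest in LM_Ctrl and had its larger median response in 4T1–LM, 2.13 against 0.65, while Ndrg1, unlike Mt1 and Mt2, was not lower in LM_DFX than in HM_DFX. Of the 6 iron uptake and storage genes expressed none was called, and the log2 ratio of Tfrc, the transferrin receptor, was 0.77 in 4T1–HM and 0.81 in 4T1–LM.

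Of the glucocorticoid-responsive genes 6 of 7 were expressed. Per1 and Dusp1 were called higher and Fkbp5 lower under DFX in both clones, and Dusp1 and Klf9 were higher in HM_Ctrl than in LM_Ctrl. Of all expressed genes, 6.93% were called higher and 12.4% lower under DFX in 4T1–HM, and 7.09% and 8.72% in 4T1–LM. In HM_Ctrl against LM_Ctrl 3.65% were called higher. Fkbp5, a chaperone regulator, was 12.4 FPKM in HM_Ctrl and 4.20 in HM_DFX, against 23.5 in LM_Ctrl and 9.64 in LM_DFX. Its directions between the clones and under DFX were opposite to those of the metallothioneins. Klf9 had the order of Mt1 and Mt2, at 35.7 FPKM in HM_Ctrl and 57.1 in HM_DFX, against 8.75 in LM_Ctrl and 17.8 in LM_DFX. Per1 and Dusp1 were also lowest in LM_Ctrl and highest in HM_DFX, but unlike Mt1 and Mt2 had LM_DFX above HM_Ctrl. Tsc22d3 was lowest in LM_Ctrl, at 6.11 FPKM, and highest in LM_DFX, at 12.5 FPKM, and was not called. Sgk1 had log2 ratios under DFX of -0.61 in 4T1–HM and -0.85 in 4T1–LM, neither called. The median log2 ratio of the expressed genes of this list was 0.33 in 4T1–HM and 0.94 in 4T1–LM. Of 8 genes of the NRF2-type oxidative stress response, Hmox1 and Slc7a11 were called higher under DFX in both clones, Srxn1 higher and Osgin1 lower in 4T1–HM, and Nqo1 lower in 4T1–LM. Hmox1, haem oxygenase, was 34.2 FPKM in HM_Ctrl and 169 in HM_DFX, against 9.91 in LM_Ctrl and 86.1 in LM_DFX, lowest in LM_Ctrl and highest in HM_DFX like Mt1 and Mt2, but with LM_DFX above HM_Ctrl. Nqo1, the quinone reductase, was 8.69 FPKM in HM_Ctrl and 4.03 in HM_DFX, against 9.95 in LM_Ctrl and 4.47 in LM_DFX.

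The summed level of the 7 epithelial markers was 1590 FPKM in HM_Ctrl and 533 in HM_DFX, against 2123 in LM_Ctrl and 1035 in LM_DFX, so the sum, carried mainly by Krt8 and Krt18, was lower under DFX in each clone. Krt19 went the other way in 4T1–LM, where it was called higher, at 46.4 FPKM in LM_Ctrl and 103 in LM_DFX. The 5 leukocyte markers summed to 12.9, 37.4, 12.3 and 83.1 FPKM in the same order, nearly all of it Cd68, a lysosomal protein, while Cd3e and Adgre1 were listed at 0. The 5 fibroblast markers summed to between 3.50 and 5.63 FPKM and the 4 endothelial markers to at most 0.203 FPKM. Of the receptors used to define TNBC, Pgr was listed at 0 and Esr1 reached at most 0.529 FPKM, while Erbb2 was 12.5 FPKM in HM_Ctrl and 3.80 in HM_DFX, against 11.8 in LM_Ctrl and 4.71 in LM_DFX, and was called lower under DFX in both clones. In bulk RNA, fewer cells of a kind and less RNA per cell cannot be told apart.

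By their pattern over the 4 libraries, the protein-coding genes closest to Mt1 among 6295 with at least 10 FPKM in a library were Trp53inp1, Plk3, Tanc2, Mt2 and Dusp4, at distances of 0.42 to 0.51. The distance is the Euclidean one between log2 values of FPKM + 1, each centred on its mean over the 4 libraries, so Mt2 ranked 4 in likeness to its neighbour. Plk3, a stress-activated kinase, was 51.4 FPKM in HM_Ctrl and 107 in HM_DFX, against 14.7 in LM_Ctrl and 46.9 in LM_DFX. The genes closest to Slc39a10 were Polh, Prdx3, Slc35g1, Cdh24 and Nop10, at distances of 0.10 to 0.15. Prdx3, the mitochondrial peroxiredoxin, was 44.3 FPKM in HM_Ctrl and 22.2 in HM_DFX, against 72.0 in LM_Ctrl and 28.1 in LM_DFX. With 4 points that are also the conditions, the order is a description only.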

How the data were processed

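Poly(A) RNA of cultured 4T1 clones was sequenced as 150-bp pairs with a directional kit, 1 library for each of 4 conditions. FPKM values were deposited by the authors. The submitters' processing notes name FastQC, Trimmomatic, HISAT2 and featureCounts with mm10. Tool versions and the strand setting of the counting are not given in the sources used here. Groups followed the labels. FPKM + 1 was compared as log2 ratios for genes at 1 FPKM or more in at least 1 library, and 2-fold was called. No count test was run on FPKM. Log2(FPKM + 1) was also fitted with limma 3.58.1 in R 4.3.3 on clone and DFX as additive terms (trended moderation, Benjamini-Hochberg adjustment). Fragments were recovered from FPKM and GENCODE M21 exon lengths. Whole numbers, within 0.02 fragments in all 4 libraries, resulted for 96.8% of the 18235 detected genes whose coordinates matched. Slc39a4, whose coordinates differed, took the smallest length that gave whole fragments. Ratio intervals are Clopper-Pearson 95% and level intervals Poisson 95%, for counting error only. Sequences came from GENCODE M21 and RefSeq (GRCm38.p6).

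The members and the 15 gene lists were chosen with earlier results of these data known. 1 marker gene is not reported here. Named genes were the 10 members, up to 6 genes of each list called in a DFX comparison or between untreated clones, the 5 genes most like Mt1 and Slc39a10, and 3 neighbours on each side of the metallothionein pair. Genes named beyond this rule are marked where they appear or illustrate a list. Alternatives were another pseudocount, other filters, scalings and thresholds, and fragments without a pseudocount. The calls and the fit were tested on simulated data. Python 3.11.15, numpy 2.4.6, pandas 2.3.3, SciPy 1.17.1 and matplotlib 3.10.9 were used.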

Additional observations from a re-analysis of the deposited data

Results flagged for a closer look

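For 6 of 43 expressed genes of the lists on zinc, copper and Mtf1 targets, the ratio under DFX pointed in opposite directions in the clones, with each counting interval on its own side of no change. With 1 library per condition, the difference was not tested for any of them, and by the same criterion 813 of 10198 expressed genes with recovered fragments, 7.97%, pointed in opposite directions. The log2 response in 4T1–HM minus that in 4T1–LM was 0.97 for Slc30a1, the plasma membrane zinc exporter, and 0.91 for Slc30a5, a zinc transporter of the secretory pathway. It was -1.18 for Slc39a13 and -0.51 for Slc39a1, both importers, and -0.27 for Sod1, the copper and zinc superoxide dismutase. For Gclc, of glutathione synthesis, it was 0.54. Slc30a1 and Slc30a5 had the higher value in 4T1–HM, and Slc39a1 and Slc39a13 the higher value in 4T1–LM. This split did not hold across the families. The exporters Slc30a4 and Slc30a9 had the higher log2 response in 4T1–LM. The importers Slc39a6, Slc39a7, Slc39a9, Slc39a10 and Slc39a11 had it in 4T1–HM. None of the 6 genes with opposite directions was called in both clones, and Slc39a13 in 4T1–HM was the only one of them called under DFX.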

How the results depend on the processing

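The labels give no replicate numbers, and pairing by clone was used only in the additive fit, where leaving out a library would leave no residual degree of freedom. At a threshold of 1.5-fold, 6 members were called under DFX in 4T1–HM (42.1% of genes), 5 in 4T1–LM (36.4%), 5 between the untreated clones (19.2%) and 6 between the clones under DFX (24.5%), and 4 differed in response (26.2%). At 4-fold, 0 were called under DFX in either clone (2.19% and 2.48% of genes), 3 between the untreated clones (0.766%) and 1 under DFX (0.75%), and 0 differed in response (0.860%). The number that differed in response by 2-fold was 3 with a pseudocount of 0.1 FPKM, 2 with median-ratio scaling and 3 from fragments without a pseudocount, against 1. Mt2 in 4T1–HM passed 2-fold under median-ratio (1.10) and 75th percentile (1.07) scaling. Mtf1 in 4T1–LM passed it at a pseudocount of 0.1 (1.17), under median-ratio scaling (1.01) and from fragments (1.20). Slc39a4 in 4T1–HM passed it from its 2 and 4 fragments (1.22). The ratio of Slc31a1 between untreated clones, 0.04, became -0.0027 under 75th percentile scaling, with no call either way. Median-ratio scaling shifted the median of all genes by 0.11 for DFX in 4T1–HM, where calls became 1119 higher and 1276 lower, against 878 and 1568. The other member calls held under each alternative pseudocount, filter and scaling run.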

Other observations

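Slc39a12, a zinc importer known mainly from brain, stayed under the expression limit and so entered no count, but its few fragments lay mostly in the DFX libraries. It was chosen after its values were seen. It was measured at 0.0797 FPKM in HM_Ctrl and 0.766 in HM_DFX, against 0 in LM_Ctrl and 0.274 in LM_DFX, which were 4, 33, 0 and 18 fragments, where a count of 0 allows up to 3 fragments as a 1-sided 95% limit. The ratio in 4T1–HM was 9.62, with a counting interval of 3.42 to 37.4. Atp7b, the copper pump of liver, was also under the limit and was likewise chosen after its values were seen. It was measured at 0.661 FPKM in HM_Ctrl and 0.771 in HM_DFX, against 0.0391 in LM_Ctrl and 0.752 in LM_DFX, so that LM_Ctrl alone stood low.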
